A study of Rattus norvegicus with 9 samples.

Results

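The transcripts described here are those of 9 rat genes of the inflammasome pathway: the sensors Nlrp3, Nlrc4 and Aim2, the adaptor Pycard, the caspases Casp1 and Casp4, the pore-forming protein Gsdmd, and the cytokines Il1b and Il18. They were picked by gene symbol, all 9 were found among the 22890 genes counted, and all 9 passed the filter on low counts that left 14274 genes for testing. Messenger RNA of rat striatum was sequenced in 9 libraries, 3 each from Sham (the control group), ICH (intracerebral hemorrhage, bleeding into the brain) and EDB (edaravone dexborneol, the free radical scavenger edaravone combined with dexborneol). Beside protocol text, the labels give tissue and group only. The sources used here give no strain, age, sex, hemorrhage method, dose or sampling time, and leave unstated if hemorrhage was also induced under EDB, so EDB was set beside both other groups. Replicates are not stated to be separate rats, so p-values measure only the spread between these samples, which may be technical in part. Pairs of libraries within groups differed by more than counting noise (chi-square per degree of freedom 25 to 72.5). ICH 1 had no counts of the Y-linked genes Kdm5d and Eif2s3y, which ICH 2 and ICH 3 held, so it was not a repeat of their RNA.

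Inflammasomes are protein platforms that assemble in the cytosol when a sensor meets a danger signal. Nlrp3 responds to membrane damage, ion flux and extracellular ATP, Nlrc4 to bacterial proteins delivered by Naip receptors, and Aim2 to double-stranded DNA. The adaptor Asc, the product of Pycard, links sensors to procaspase-1, which on activation cleaves pro-interleukin-1 beta, pro-interleukin-18 and gasdermin D. Gasdermin D then forms pores through which the cytokines leave and the cell may die by pyroptosis. Caspase-4, known as caspase-11 in the mouse, binds bacterial lipopolysaccharide and cleaves gasdermin D directly. In brain these genes are best known from microglia and infiltrating myeloid cells, where transcription of Nlrp3 and Il1b is raised by a priming signal through NF-kB. Assembly, cleavage and release take place at the protein level and were not measured here.

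The transcripts of 7 members rose with hemorrhage, and the promoters of those that the RefSeq table lists are shown to give the sequence next to their start sites. The table (assembly GRCr8) held 6 of the 9 members, namely Nlrp3, Aim2, Pycard, Casp1, Il1b and Il18. Each window covers the 250 bases before the annotated start, read 5′ to 3′ along the gene's strand, and lies at chr10:44827848-44828097 (plus strand) for Nlrp3, chr1:192033420-192033669 (minus strand) for Pycard, chr8:10872580-10872829 (plus strand) for Casp1 and chr8:59801822-59802071 (plus strand) for Il18. Capitals mark the letters GAGGAA, a core bound by the myeloid factor PU.1, where they occur on either strand.
Nlrp3: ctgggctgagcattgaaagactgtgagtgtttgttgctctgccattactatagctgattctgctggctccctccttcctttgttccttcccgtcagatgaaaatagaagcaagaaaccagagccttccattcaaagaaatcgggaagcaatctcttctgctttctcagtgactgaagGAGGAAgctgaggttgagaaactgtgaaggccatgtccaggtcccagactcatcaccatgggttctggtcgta
Pycard: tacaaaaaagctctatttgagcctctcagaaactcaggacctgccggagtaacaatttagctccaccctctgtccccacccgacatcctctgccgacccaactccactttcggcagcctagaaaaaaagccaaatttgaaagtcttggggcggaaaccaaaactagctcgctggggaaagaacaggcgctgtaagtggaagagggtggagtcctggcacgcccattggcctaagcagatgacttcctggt
Casp1: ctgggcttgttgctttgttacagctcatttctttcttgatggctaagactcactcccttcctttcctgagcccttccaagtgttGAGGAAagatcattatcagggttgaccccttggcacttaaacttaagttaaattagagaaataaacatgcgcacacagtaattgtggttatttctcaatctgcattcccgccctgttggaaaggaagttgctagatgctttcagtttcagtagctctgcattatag
Il18: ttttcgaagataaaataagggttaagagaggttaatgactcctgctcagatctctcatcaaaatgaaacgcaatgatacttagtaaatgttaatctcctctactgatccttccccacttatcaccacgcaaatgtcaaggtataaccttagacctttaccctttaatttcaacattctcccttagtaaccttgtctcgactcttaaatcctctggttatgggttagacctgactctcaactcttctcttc

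The PU box letters began 73 bases before the start of Nlrp3 and 166 bases before that of Casp1, and Aim2 held them 84 bases before its start. They were in 3 of the 6 member windows and in 23.3% of 33469 promoter windows of the same length. The AP-1 letters TGANTCA, present in 6.34% of all windows, and the NF-kB kappaB motif, present in 4.24%, were in none of the 6. Motifs were sought on both strands, and a match describes letters in the window only.

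Total counts ran from 14658110 to 17659936 per library. All 8 listed genes of striatal projection neurons present in the files had counts in every library, with sums of 5465 to 12483 CPM, so the defining markers of the labelled tissue were present. Levels are in CPM, read counts scaled to a common library size after TMM correction for library composition, and values are in the order of replicates 1, 2 and 3. Some libraries stood apart. ICH 1 had 0 counts of the Y-linked genes Kdm5d and Eif2s3y, whereas the remaining 8 libraries held 10.3 to 18.5 CPM of Kdm5d and 3.35 to 9.91 CPM of Eif2s3y. EDB 3 had 6684 CPM of the choroid plexus product Ttr against 17.0 to 52.5 CPM elsewhere. Alb was at 166 and 165 CPM in Sham 1 and Sham 3. It was at 3.21 CPM in Sham 2 and at 2.27 to 25.8 CPM over the ICH and EDB libraries. Member results that turn on 1 of these libraries are given with and without it.

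In ICH against Sham, the comparison that asks what hemorrhage did to the pathway, 7 of the 9 transcripts rose, all but Aim2 and Il1b. Here and below a gene rose or fell where its edgeR quasi-likelihood p, adjusted by Benjamini-Hochberg over all genes tested, was under 0.05. Of all genes tested, 11.4% rose, 7.30% fell, and 20.2% had all 3 ICH libraries above all 3 Sham libraries. The 7 that rose were also the 7 without overlap. The median log2 fold change over the 9 members was 2.11, against 0.01 over all genes. Summed over the members, levels were 23.2, 19.3 and 22.7 CPM in Sham, 103, 78.6 and 69.4 CPM in ICH and 59.8, 59.2 and 45.1 CPM in EDB.

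Nlrp3 was the most abundant of the sensors, with 5.19, 4.51 and 5.52 CPM in Sham, 25.5, 24.7 and 18.96 CPM in ICH, and 17.9, 16.8 and 12.003 CPM in EDB. The 3 groups did not overlap, and EDB lay between the others. Its log2 fold change in ICH against Sham was 2.18 ± 0.21 (SE, n = 3 against 3, edgeR adjusted p = 6.78e-05). It held under all 18 alternatives tried, with a highest adjusted p of 0.000678. CPM values do not correct for transcript length, so this order among genes is one of counted reads.

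Nlrc4, the sensor coupled to Naip receptors, was scarce in Sham at 0.812, 0.205 and 1.63 CPM and stood at 6.47, 4.09 and 3.24 CPM in ICH. In EDB it was 2.85, 4.08 and 1.88 CPM, which overlaps ICH but not Sham. The rise with hemorrhage was 2.38 ± 0.59 (log2, edgeR adjusted p = 0.0159). It missed the threshold without Sham 1 (adjusted p = 0.0554) and without ICH 1 (2.05, adjusted p = 0.0639), and was 3.14 without Sham 3 (adjusted p = 0.00968).

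Aim2, the DNA sensor, gave few reads: 10, 3 and 9 counts in Sham, 29, 6 and 1 in ICH, and 3, 0 and 3 in EDB. In CPM this was 0.625, 0.205 and 0.637, then 1.69, 0.378 and 0.0540, then 0.186, 0 and 0.188, where the 0 allows up to 0.180 CPM (3 counts). ICH 1 held 29 of the 36 ICH counts, and the ICH and Sham libraries overlapped. The log2 fold change in ICH against Sham was 0.52 ± 0.98 (edgeR adjusted p = 0.778), and the ratio of summed counts was 1.42, with an exact Clopper-Pearson 95% interval of 0.813 to 2.53. Intervals and floors here cover counting error only.

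Pycard, the adaptor shared by the sensors, stood at 2.69, 3.01 and 0.991 CPM in Sham, 12.8, 12.96 and 9.72 CPM in ICH, and 6.68, 7.43 and 5.25 CPM in EDB. As with Nlrp3, the 3 groups did not overlap and EDB lay between the others. It rose by 2.40 ± 0.36 (log2, edgeR adjusted p = 0.000944) and stayed past the threshold in every alternative, at an adjusted p of at most 0.00559.

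**Figure D1:**
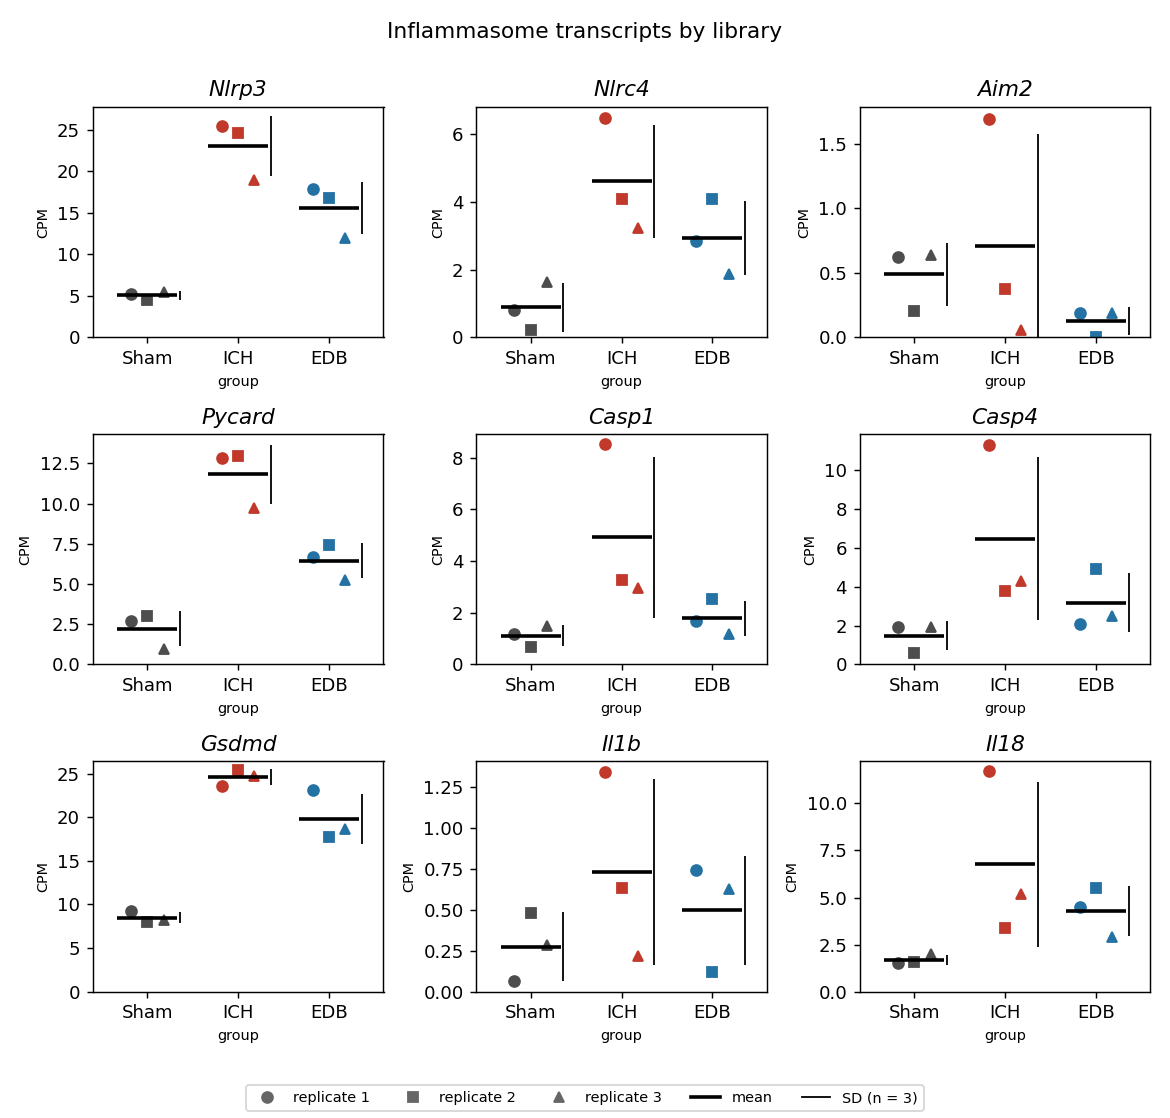
Level of each of the 9 transcripts in CPM (vertical axes, each from 0) in the Sham, ICH and EDB libraries. Points are libraries, shaped by replicate, thick lines are means and thin lines are SDs (n = 3), with the SD of Aim2 in ICH running below 0 and not drawn there. The ICH libraries of Gsdmd lie within 23.6 to 25.4 CPM, while ICH replicate 1 stands above the other 2 ICH libraries in Nlrc4, Aim2, Casp1, Casp4, Il1b and Il18.

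Casp1, the protease that matures the cytokines, was at 1.19, 0.684 and 1.49 CPM in Sham, 8.51, 3.27 and 2.97 CPM in ICH and 1.67, 2.52 and 1.19 CPM in EDB. All ICH libraries lay above all others, but ICH 1 stood well above ICH 2 and ICH 3. The rise was 2.13 ± 0.51 (log2, edgeR adjusted p = 0.0142) with ICH 1 and 1.48 without it (adjusted p = 0.0677).

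Casp4, which acts in the lipopolysaccharide branch, was at 1.94, 0.616 and 1.91 CPM in Sham, 11.3, 3.78 and 4.32 CPM in ICH and 2.10, 4.92 and 2.50 CPM in EDB. ICH 1 again stood highest, and EDB overlapped ICH but not Sham. The rise was 2.11 ± 0.56 (log2, edgeR adjusted p = 0.0235), 1.44 without ICH 1 (adjusted p = 0.111) and 1.75 without Sham 2 (adjusted p = 0.0619). Casp1 and Casp4 are related in sequence, and no source used here gives the strand setting or the handling of reads that match both, so their split is uncertain.

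Gsdmd, the executor of pyroptosis, was the most even member. It stood at 9.19, 8.003 and 8.21 CPM in Sham, 23.6, 25.4 and 24.7 CPM in ICH and 23.1, 17.7 and 18.6 CPM in EDB. It rose by 1.54 ± 0.16 (log2, edgeR adjusted p = 8.45e-05), the smallest rise among the 7, and its adjusted p was at most 0.00077 over the alternatives.

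The cytokine transcripts differed from each other. Il18, whose precursor is present in unprimed cells, stood at 1.4998, 1.57 and 1.98 CPM in Sham, 11.7, 3.40 and 5.18 CPM in ICH and 4.52, 5.52 and 2.88 CPM in EDB. All ICH and all EDB libraries lay above Sham, and ICH 1 was again the highest. It rose by 2.0035 ± 0.46 (log2, edgeR adjusted p = 0.0114), with adjusted p of at most 0.0458 over the alternatives, and by 1.35 without ICH 1 (adjusted p = 0.0446).

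Il1b, a cytokine strongly induced in primed macrophages, gave only 1, 7 and 4 counts in Sham, 23, 10 and 4 in ICH, and 12, 2 and 10 in EDB. These were 0.0625, 0.479 and 0.283 CPM, then 1.34, 0.629 and 0.216 CPM, then 0.742, 0.120 and 0.625 CPM, and the groups overlapped. The log2 fold change in ICH against Sham was 1.39 ± 0.90 (edgeR adjusted p = 0.317). The ratio of summed counts was 2.68 (exact Clopper-Pearson 95% interval 1.36 to 5.64), an interval that leaves out the spread between libraries. The fitted value was 0.61 without ICH 1 and 2.06 without Sham 2, neither past the threshold.

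**Figure D2:**
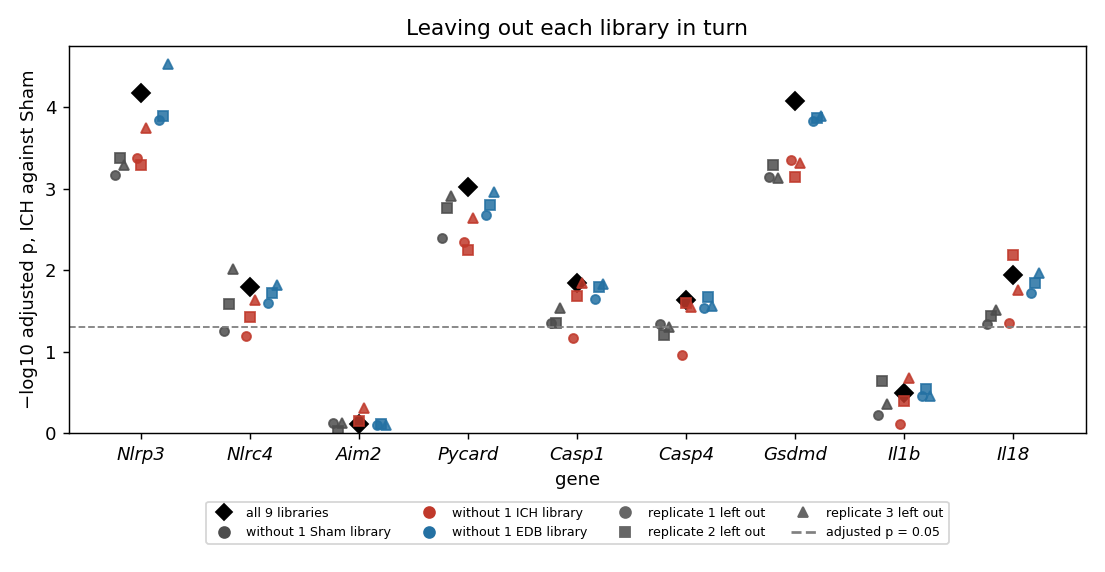
Negative log10 of the adjusted p of each transcript in ICH against Sham (vertical axis, higher is smaller p) with all 9 libraries (diamonds) and with each library left out (coloured by group, shaped by replicate), and the 0.05 threshold as a dashed line. Nlrp3, Pycard, Gsdmd and Il18 stay above the line throughout, Il18 close to it without ICH replicate 1. Nlrc4, Casp1 and Casp4 cross it without ICH replicate 1, and Nlrc4 and Casp4 also cross it without Sham replicate 1 and Sham replicate 2 respectively.

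In all, 4 of the 7 rises remained past the threshold without ICH 1, those of Nlrp3, Pycard, Gsdmd and Il18. Without Sham 2, ICH 1 and EDB 3 together, 5 remained, since Casp1 (1.22, edgeR adjusted p = 0.0813) and Casp4 (1.07, adjusted p = 0.133) were lost. That set keeps Sham 1 and Sham 3, the libraries high in Alb.

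EDB against ICH asks how the drug group stood relative to hemorrhage. All 9 transcripts had lower fitted values in EDB, and none passed the test: edgeR, DESeq2 and limma-voom each called 0 of 9. By edgeR, 0.631% of all genes tested fell. With edgeR's unadjusted p under 0.05 there were 3 members, Nlrp3, Pycard and Casp1, beside 9.97% of all genes lower at that level. Those 3 and Gsdmd, 4 members, had all EDB libraries below all ICH libraries, as did 13.6% of all genes. The median log2 fold change was -0.65 over the members and -0.03 over all genes.

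Casp1 had a difference of -1.45 ± 0.49 (log2, edgeR adjusted p = 0.184), and its EDB libraries, 1.19 to 2.52 CPM, lay below the lowest ICH library at 2.97 CPM. Without ICH 1 its difference was -0.80 (adjusted p = 0.557). Pycard differed by -0.87 ± 0.33 (adjusted p = 0.229) and Nlrp3 by -0.56 ± 0.20 (adjusted p = 0.197). Gsdmd differed by -0.31 ± 0.15 (adjusted p = 0.343), where EDB 1 at 23.1 CPM was just under ICH 1 at 23.6 CPM. The spread of 3 libraries leaves room for falls of this size, and a p above the threshold does not show equal levels.

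The other 5 were less even. Casp4 differed by -1.02 ± 0.53 (log2, edgeR adjusted p = 0.375), Nlrc4 by -0.65 ± 0.53 (adjusted p = 0.585) and Il18 by -0.65 ± 0.43 (adjusted p = 0.486), each with overlapping libraries. Without ICH 1 the value for Casp4 was -0.35 (adjusted p = 0.874), that for Il18 was 0.0016 and that for Il1b turned from -0.55 ± 0.82 to 0.24. Aim2 differed by -2.44 ± 1.17 (adjusted p = 0.322), on 6 summed counts in EDB against 36 in ICH, of which ICH 1 alone gave 29.

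**Figure D3:**
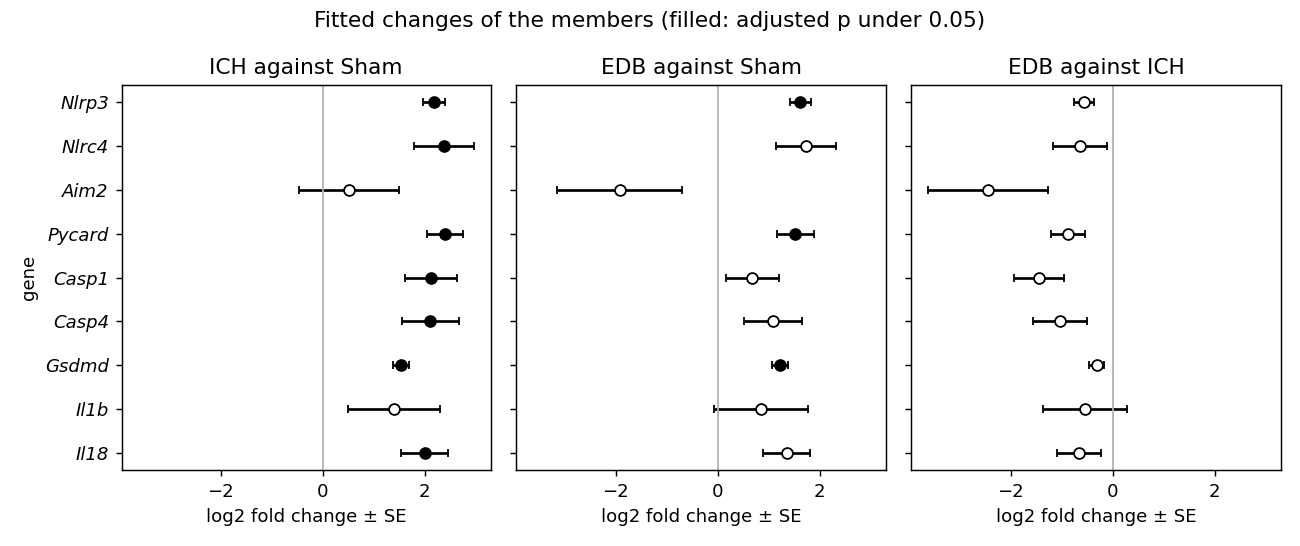
Fitted log2 fold change with its SE (horizontal axes) of the 9 transcripts in the 3 comparisons, n = 3 against 3, filled where the adjusted p was under 0.05. In ICH against Sham 7 are filled, in EDB against Sham 3 (Nlrp3, Pycard and Gsdmd), and in EDB against ICH none, with all 9 points left of 0.

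Against Sham, the EDB group had 3 members higher by the test, beside 4.95% of all genes tested. Nlrp3 was higher by 1.62 ± 0.21 (log2, edgeR adjusted p = 0.00129), Gsdmd by 1.23 ± 0.16 (adjusted p = 0.00126) and Pycard by 1.53 ± 0.36 (adjusted p = 0.026). Those of Nlrp3 and Gsdmd held in every alternative, and that of Pycard was lost in several, among them without EDB 1 (adjusted p = 0.0799), without EDB 2 (0.0673) and without Sham 1 (0.0607). In 6 members all EDB libraries lay above all Sham libraries, beside 15.1% of all genes: these 3 with Nlrc4, Casp4 and Il18.

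Il18 was at 1.35 ± 0.46 (log2, edgeR adjusted p = 0.102) and Nlrc4 at 1.73 ± 0.59 (adjusted p = 0.0998). DESeq2 called both, with adjusted p of 0.0436 and 0.0288. Casp4 was at 1.09 ± 0.56 (edgeR adjusted p = 0.284) and Il1b at 0.85 ± 0.93 (adjusted p = 0.634). Casp1 was the member nearest to Sham, at 0.68 ± 0.52 (adjusted p = 0.483) with overlapping libraries. Aim2 was the single member with all EDB libraries below all Sham libraries in CPM, as were 10.9% of all genes, at -1.93 ± 1.22 (adjusted p = 0.376) on 6 counts against 22. Sham 2, EDB 1 and EDB 3 each gave 3 counts of Aim2, so its separation rests on the scaling of libraries. The ICH libraries enter 2 of the 3 comparisons, and so do the Sham and EDB libraries, so the 3 sets of values are not independent.

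In bulk tissue, more cells of a type and more RNA per cell cannot be told apart. The 16 listed microglia and macrophage markers summed to between 965 and 1192 CPM in Sham, 4092, 4321 and 4583 CPM in ICH and 3570, 3315 and 2052 CPM in EDB. All 16 rose in ICH against Sham (median log2 fold change 2.55), 0 of 16 passed in EDB against ICH (median -0.65), and 14 of 16 were higher in EDB than in Sham. Though none passed, 12 of the 16 had all EDB libraries below all ICH libraries, beside 13.6% of all genes. With edgeR's unadjusted p under 0.05 there were 13 of the 16, beside 9.97% of all genes lower at that level. EDB 3, which had the lowest Nlrp3, Pycard, Casp1, Nlrc4 and Il18 of the EDB libraries, also had the lowest marker sum of that group. The remaining members differed, with Gsdmd, Il1b and Aim2 lowest in EDB 2 and Casp4 lowest in EDB 1. Monocyte markers summed to between 63.7 and 92.6 CPM in Sham, 823, 556 and 497 CPM in ICH and 245, 184 and 192 CPM in EDB. Of these, 5 of 5 tested were higher in ICH and 2 of 5 lower in EDB than in ICH. Lyz2 made up most of the ICH sums, at 592, 390 and 357 CPM. Ccr2 of the same list gave only 3 summed counts in Sham, 17 in ICH and 2 in EDB. Neutrophil markers ran from 9.19 to 11.5 CPM in Sham, 56.2 to 70.7 CPM in ICH and 22.1 to 38.97 CPM in EDB, with 3 of 5 tested higher in ICH than in Sham. Csf3r, which other myeloid cells also express, made up most of that sum, at 7.12, 7.25 and 8.78 CPM in Sham and 59.1, 51.3 and 49.5 CPM in ICH. S100a8 and S100a9 rose, and Ngp did not pass (-0.42). Cxcr2 and Mmp8 had all ICH libraries above all Sham libraries, but neither was among the 3 called. Mmp8 was at 2.68, 0.315 and 0.810 CPM in ICH, highest in ICH 1. The means of Cxcr2 and Mmp8 were 1.19 and 1.27 CPM in ICH and 0.283 and 0.160 CPM in Sham. Camp was lower in all ICH libraries (at most 0.0629 CPM), on 3 summed counts against 8 in Sham. Elane was at most 0.0540 CPM and Mpo was at 0 in all ICH libraries. T cell markers summed to between 2.37 and 4.50 CPM in all 9 libraries. Neural markers moved between the groups as well. Striatal projection neuron sums were 7634 to 12483 CPM in Sham and 5465 to 6850 CPM in ICH, with 4 of 8 genes fallen, and 3 of 6 pan-neuronal genes fell too. Astrocyte sums were 2057 to 2730 CPM in Sham, 7305 to 7598 CPM in ICH and 4731 to 5461 CPM in EDB, with 2 of 6 genes risen in ICH. Gfap made up most of the ICH and EDB sums, with means of 484 CPM in Sham, 4918 CPM in ICH and 3234 CPM in EDB. Aqp4, Slc1a3 and Gja1 had higher means in ICH than in Sham, and Aldh1l1 and Slc1a2 lower ones. Oligodendrocyte sums were 16678 to 27086 CPM in Sham, 15810 to 31559 CPM in ICH and 37209 to 42916 CPM in EDB, with 0 of 6 genes called in any comparison by edgeR. Oligodendrocyte genes with an unadjusted p under 0.05 numbered 0, 1 and 6 in ICH against Sham, EDB against ICH and EDB against Sham. The part of these cell populations in the member results was not tested beyond the ratios that follow.

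Relative to the summed microglia and macrophage markers, ICH and Sham libraries overlapped for 6 of 7 members. This ratio was formed for the 7 members with at least 3 counts in every library, a limit set after the counts were seen. They are the same 7 that rose in ICH. The share of all genes with or without overlap in such a ratio was not computed. Nlrp3 was at 4.87 CPM per 1000 marker CPM in Sham, 5.28 in ICH and 5.31 in EDB, a log2 difference in ICH against Sham of 0.12 ± 0.19 (SE, exact two-sided permutation p = 0.6). Such a test of 3 against 3 libraries cannot go below 0.10, so no ratio could pass 0.05. Casp1 was at 1.02 in Sham, 1.01 in ICH and 0.590 in EDB, with overlapping libraries in each comparison. Within ICH the ratios of Casp1 were 2.08, 0.757 and 0.648, those of Casp4 2.76, 0.874 and 0.943 and those of Il18 2.86, 0.786 and 1.13, so ICH 1 was high in these 3 genes relative to the markers too.

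Gsdmd alone had ratios without overlap in ICH against Sham, 5.68 against 8.13 CPM per 1000 marker CPM, a log2 difference of -0.52 ± 0.14 (exact permutation p = 0.1, the smallest possible), but 0.52 in the other direction when the 8 homeostatic microglia markers were the reference. Against those markers, which include P2ry12 and Tmem119 of resting microglia, all 7 ratios were higher in ICH than in Sham without overlap, with a median log2 difference of 1.09 in place of 0.05. These 7 members already lay higher in ICH without overlap in CPM, and no share over all genes was computed for this ratio. The homeostatic sums were 277 to 349 CPM in Sham and 769, 533 and 625 CPM in ICH, a smaller difference than that of the main marker list. With the mean of log2 CPM over the 16 main markers in place of their sum, Nlrp3 turned from 0.12 to -0.35 and was lower in ICH without overlap, as was Gsdmd (-0.99). The outcome of this ratio therefore depends on the reference list and on how it is summarised.

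**Figure D4:**
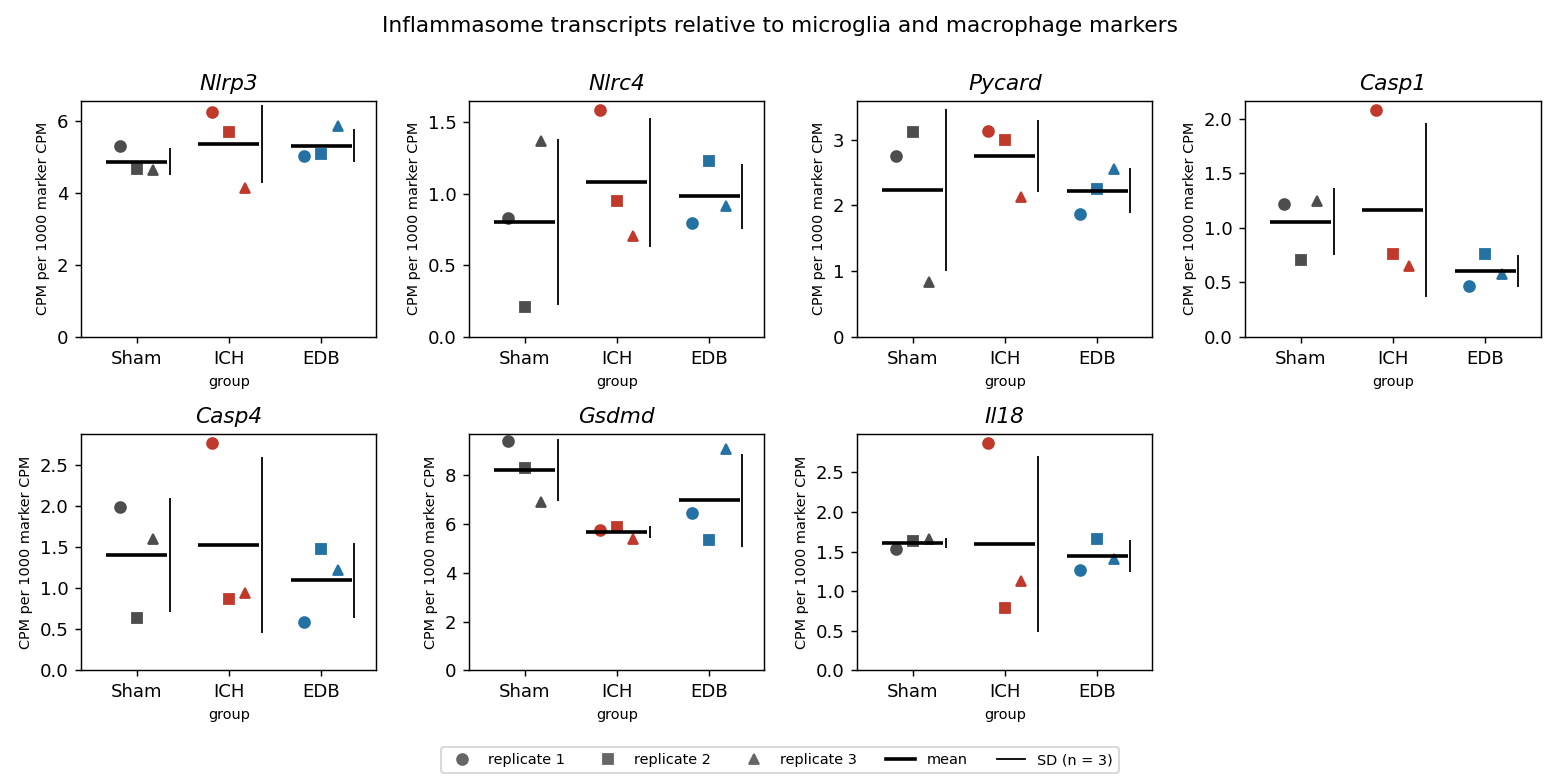
Level of 7 transcripts in CPM per 1000 CPM of 16 summed microglia and macrophage markers (vertical axes, each from 0), by group. Points are libraries, shaped by replicate, thick lines are means and thin lines are SDs (n = 3). The groups overlap in all but Gsdmd, whose 3 ICH libraries, 5.40 to 5.88, lie under the Sham libraries, 6.89 to 9.42.

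The rest of the pathway was read from 7 lists of 80 genes, of which 75 were in the files and 61 were tested. In ICH against Sham 31 rose and 1 fell (median log2 fold change 0.81), in EDB against ICH 0 rose and 2 fell (median -0.45), and in EDB against Sham 17 were higher and 1 lower (median 0.39), where 2.71% of all genes tested were lower. Receptors and NF-kB components of priming had 7 of 12 risen. Cd14, the co-receptor for lipopolysaccharide, rose by 3.78 ± 0.30 (log2, edgeR adjusted p = 2.88e-05), Tlr2, a receptor for lipoproteins, by 2.43 ± 0.23 (6.36e-05), and Irak4, a kinase downstream of Toll-like receptors, by 1.45 ± 0.17 (0.000212).

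Of the triggers and helpers that act on sensors, 10 of 14 rose. Zbp1, a sensor of Z-form nucleic acids, went from 0.937, 1.09 and 0.496 CPM in Sham to 24.8, 26.6 and 21.7 CPM in ICH. Its rise was 4.83 ± 0.43 (log2, edgeR adjusted p = 4.74e-05). P2rx4, an ATP-gated channel of microglia, rose by 1.52 ± 0.19 (adjusted p = 0.000281) and Gbp2, an interferon-induced GTPase, by 2.19 ± 0.31 (0.000685). Among other sensors of the NLR and pyrin families 6 of 8 rose, with Mefv, which encodes pyrin, at 3.40 ± 0.40 (0.000183), its partner Pstpip1 at 2.50 ± 0.32 (0.000349) and Nlrc5, a regulator of MHC class I genes, at 1.68 ± 0.23 (0.000477).

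The other caspases of cell death split, with 2 of 5 risen and 1 fallen. Casp8, the initiator of death-receptor apoptosis, rose by 2.19 ± 0.39 (log2, edgeR adjusted p = 0.00294). Casp9, the initiator of mitochondrial apoptosis, stood at 110, 130 and 112 CPM in Sham and at 53.0, 61.7 and 71.3 CPM in ICH. It fell by 0.92 on the log2 scale (SE 0.14, adjusted p = 0.001), and it was the 1 gene lower in EDB than in Sham (-0.73, adjusted p = 0.00972).

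Other gasdermins, rupture and membrane repair genes had 1 of 7 risen and a median of 0.03. The 1 was Ninj1, whose product ruptures the plasma membrane after gasdermin pores have formed. It stood at 15.4, 13.5 and 15.8 CPM in Sham, 49.2, 49.7 and 45.7 CPM in ICH and 25.7, 19.96 and 24.7 CPM in EDB, with no overlap between any 2 groups. It rose by 1.69 ± 0.14 with hemorrhage (log2, edgeR adjusted p = 3.56e-05), was lower in EDB than in ICH by -1.04 ± 0.14 (adjusted p = 0.0197), and was above Sham in EDB (0.65 ± 0.14, adjusted p = 0.0181). The last of these missed the threshold in 5 of 18 alternatives, namely with the 6 libraries compared (adjusted p = 0.056), without Sham 1 (0.0593), EDB 1 (0.0811) or EDB 3 (0.0579), and without Sham 2, ICH 1 and EDB 3 together (0.0727). The fall against ICH missed the threshold without ICH 2 (adjusted p = 0.088), EDB 2 (0.0579) or EDB 3 (0.0588). Vps4b and Chmp2a, of the ESCRT machinery that mends pores, stood at 0.27 (adjusted p = 0.214) and 0.20 (0.284).

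Of the IL-1 family ligands, receptors and antagonists 4 of 8 rose. Il1rn, the antagonist of the interleukin-1 receptor, was at 0.437, 0.137 and 0.0708 CPM in Sham, 5.83, 2.45 and 1.998 CPM in ICH and 0.928, 0.480 and 1.06 CPM in EDB. It rose by 3.91 ± 0.70 (log2, edgeR adjusted p = 0.00264) and differed by -2.05 ± 0.59 in EDB against ICH (adjusted p = 0.128, and 0.0409 by DESeq2). The rise of Il1rn was 4.90 without Sham 1 and 3.29 without ICH 1. Il18rap, a subunit of the interleukin-18 receptor, rose by 4.43 ± 0.75 (0.00192, with 3.79 without Sham 1 and 5.37 without Sham 2) and Il1rl1, the receptor of interleukin-33, by 2.19 ± 0.45 (0.00594). Restraints on inflammasomes had 1 of 7 risen, Serpinb1a, an inhibitor of neutrophil proteases and inflammatory caspases, at 3.50 ± 0.27 (2.42e-05). Il10ra (0.70 ± 0.23, adjusted p = 0.0551) and Socs1 (0.96 ± 0.43, 0.148) did not pass. Il10ra passed in 7 of 18 alternatives, among them DESeq2 (0.0305), the 6 libraries compared (0.0149) and library size only (0.0315).

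The 2 genes of these lists that fell in EDB against ICH were Ninj1 and Cd14. Cd14 stood at 20.9, 15.1 and 16.8 CPM in ICH and 8.35, 7.91 and 4.50 CPM in EDB, a difference of -1.34 ± 0.26 (log2, edgeR adjusted p = 0.049) that was lost in 11 of the alternatives. P2rx4 at -0.86 (edgeR adjusted p = 0.0645), Irak4 at -0.69 (0.092) and Tlr2 at -0.83 (0.101) missed the threshold. DESeq2 called all 3 lower, at adjusted p of 0.00284, 0.013 and 0.0181, and P2rx4 was also called by limma-voom (0.0397), without Sham 2 (0.0425) and without Sham 2, ICH 1 and EDB 3 together (0.0463). Pstpip1 missed the threshold too, but was called lower by DESeq2 (-1.16, adjusted p = 0.0112) and by limma-voom (-1.27, adjusted p = 0.0466).

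**Figure D5:**
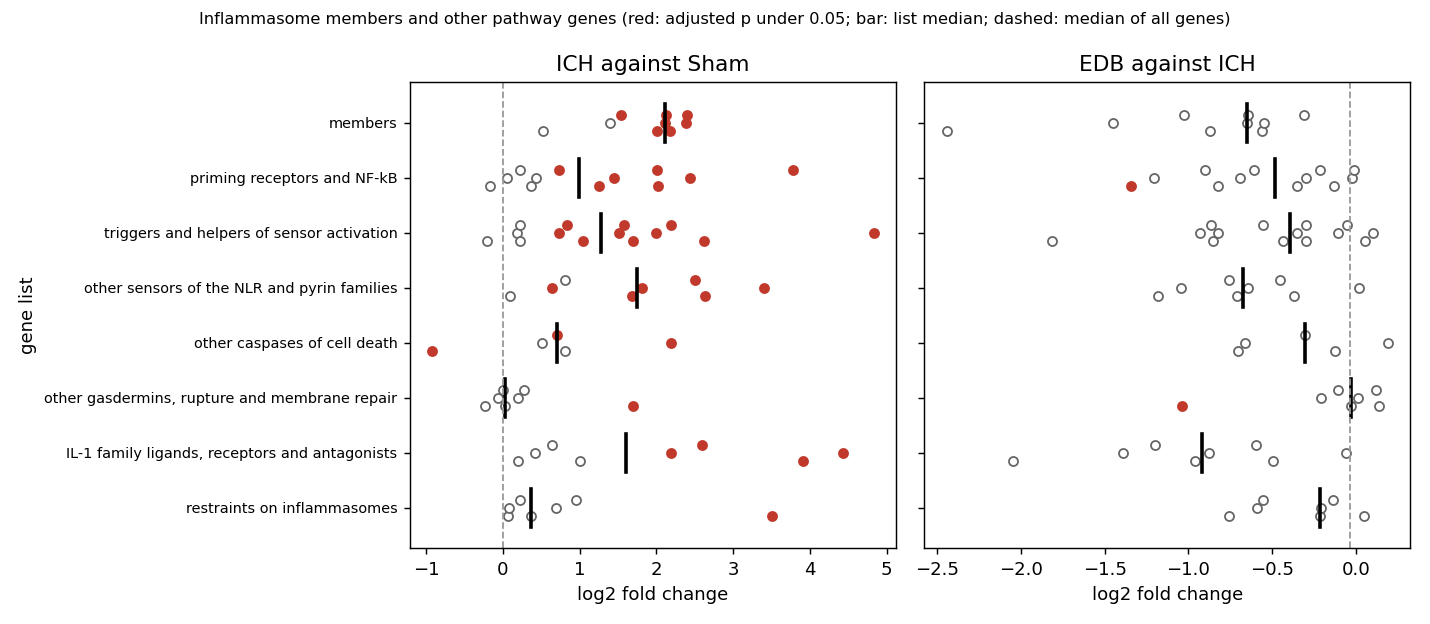
Fitted log2 fold change (horizontal axes) of the 9 transcripts and of the tested genes of 7 other pathway lists (rows) in ICH against Sham and EDB against ICH. Points are genes, red where the adjusted p was under 0.05, bars are list medians and the dashed line is the median of all genes tested. In ICH against Sham 7 members and 32 other genes are red, Casp9 being the 1 on the lower side, and in EDB against ICH only Cd14 and Ninj1 are.

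Patterns over the 9 libraries were compared by the root mean square difference of log2 CPM after each gene was centred on its own mean, among 10770 genes of at least 5 CPM. Nearest to Nlrp3 were Gna15 (0.13), P2ry6 (0.14) and Tlr2 (0.14), and nearest to Gsdmd were Fuca1 (0.09), Glb1 (0.11) and Npc2 (0.11). Casp1 had Sp100 (0.25), Pla2g4a (0.26) and Parp14 (0.28), Casp4 had Tgfbr1 (0.24), Tlr3 (0.30) and Pros1 (0.32), and Il18 had Fxyd5 (0.25), Nlrp1a (0.30) and Slc15a3 (0.30). Pycard had Cxcl16, Tap1 and Sp140 (each 0.30), and Nlrc4 had MGC108823 (0.32) and Fyb1 (0.33) among its nearest. No gene came closer than 0.72 (Idi1) to Aim2 or 0.54 (Igfbp3) to Il1b, the members with few counts. Between members the smallest distances were those of Nlrp3 and Gsdmd (0.32) and of Casp1 and Casp4 (0.33). The compared genes share libraries, and these distances describe likeness over 9 points only.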

How the data were processed

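The deposited files hold whole-number read counts per gene, 1 library per file. Per the submitters' processing notes, cutadapt, HISAT2, HTSeq and limma were used with the rat build Rnor_6.0. No source used here gives versions, annotation release, strandedness or filtering. RNA was extracted with TRIzol, per the labels' protocols. Genes are named by the symbols in the files.

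Counts were filtered with filterByExpr by group, scaled by TMM and fitted in edgeR 4.0.16 (R 4.3.3, glmQLFit with robust dispersions, 1 mean per group over all 9 libraries), tested with edgeR's quasi-likelihood F test and adjusted over the 14274 genes tested. The alternatives were RLE or library-size scaling, no filter or a minimum of 1 CPM in any 3 libraries, limma-voom (limma 3.58.1), DESeq2 1.42.0, 6 libraries, a replicate block and left-out libraries. The fit was tested on simulated data. The members, the lists and the libraries to leave out together were chosen with earlier results of these data known. Named are all members, the 3 genes with the smallest p in ICH against Sham of each other list, those called in EDB against ICH and the 3 nearest patterns per member, except that 2 genes under this rule are not reported here. Distances used log2 CPM with a prior count of 2.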

Additional observations from a re-analysis of the deposited data

How the results depend on the processing

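The count of 7 members risen in ICH against Sham and of 0 in EDB against ICH was the same under RLE scaling, library size only, both filters, DESeq2, limma-voom and the 6 libraries compared. Leaving out each library gave 4 to 7 members in ICH against Sham, the lowest without ICH 1. In EDB against Sham DESeq2 called 5 members in place of 3, and leaving out each library gave 2 to 4. Of the other pathway genes, 2 were called in EDB against ICH, which became 8 with DESeq2, 4 with limma-voom and 1 with the 6 libraries compared, with 0 to 3 when each library was left out. In EDB against Sham 18 became 10 with the 6 libraries compared, and 9 to 18 with each library left out. The cause was not tested. The median log2 difference of the marker ratio in ICH against Sham was 0.05, 1.09 with the homeostatic list, -0.41 with the mean of log2 CPM over the list, and -0.48 to 0.29 when each library was left out.

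With the replicate number as a replicate block, 7, 0 and 3 members were called, as without it, and 1 other pathway gene in EDB against ICH in place of 2. Deviations from the group mean had correlations of -0.31 to 0.25 between same-numbered libraries of different groups. Between differently numbered ones they were -0.23 to 0.33. The labels give a shared number only, and these values do not settle if it marks a pairing.

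Directions turned in EDB against ICH for values that did not pass the test. Leaving out each library gave -0.9876 (without ICH 3) to 0.2417 (without ICH 1) for Il1b, -0.9665 (without ICH 2) to 0.0016 (without ICH 1) for Il18, -0.3074 (without EDB 2) to 0.1071 (without EDB 3) for Il10ra, and -0.0209 (without EDB 1) to 0.0696 (without EDB 2) for Chmp2a, with -0.0098 without ICH 1 and -0.0147 without EDB 3. Without Sham 2, ICH 1 and EDB 3 together, values were 0.0469 for Il1b, 0.2209 for Il18, 0.1094 for Il10ra, 0.0043 for Vps4b and -0.0361 for Chmp2a, and Chmp2a was at -0.0618 with library size only. In ICH against Sham Aim2 was at -0.34 with limma-voom. The cause was not tested. With Aim2 and Il1b at 0 to 29 counts per library, counting limits both.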
